A study of Mus musculus with 8 samples.

Results

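Genes of the pentose phosphate pathway, of folate-dependent one-carbon transfer and of nucleotide synthesis, salvage and breakdown were compared between donor types in RNA of colon endothelial sorts from mice 2 days after bone marrow transplantation. The list held 38 genes, named by their function, and 33 of them had a probe set (the group of probes read as 1 value) annotated with only that gene, out of 22180 genes measured. Tkt, Pfas and Tymp share their probe sets with a second annotated gene, and G6pdx and Impdh2 had no named probe set, so these 5 are not analysed here. Both groups were female C57BL/6 recipients that had 5 days of conditioning with busulfan and cyclophosphamide and then received bone marrow and T cells. In the allogeneic group (4 samples) the donors were LP/J, a different strain, and T cells of such a graft can start graft-versus-host disease. In the syngeneic group (4 samples) the donors were C57BL/6, so the controls carried the same conditioning and graft without the strain difference. The sort took CD31-positive cells of digested colon that were negative for CD45 and CD11b, and 1 Affymetrix Mouse Gene 2.0 array was run per sample. Values are log2 signals normalized by the authors, in which a difference of 1 is a 2-fold change.

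The pentose phosphate pathway turns glucose 6-phosphate into NADPH and ribose 5-phosphate, and phosphoribosyl pyrophosphate (PRPP) made from that ribose is the base on which purine and pyrimidine nucleotides are built. Folate carries the carbon units that purine rings and thymidylate need, and ribonucleotide reductase makes the deoxynucleotides for DNA. Salvage enzymes reuse nucleosides and free bases, and phosphorylases and deaminases break nucleosides down. Dividing cells such as those of the colon crypt rely on synthesis, and uridine phosphorylase is known as a gene that inflammatory signals can induce.

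The sorted samples held RNA of more than endothelium. The 24 measured endothelial markers had mean signals per array between 7.68 and 8.36 in allogeneic samples and between 7.93 and 9.85 in syngeneic samples, highest on syngeneic arrays 3 (8.97) and 4 (9.85). All 24 had a negative log2 change, allogeneic minus syngeneic, and none passed the test, where 0.469% of all genes did. An unadjusted p below 0.05 in limma was found for 8 of them, all lower. That is 33.3%, against 5.43% of all genes on the lower side. The groups did not overlap for 2 of them, or 8.33% against 8.55% of all genes. The 20 colon epithelial markers were strong on every array, with list means of 10.66 to 10.78 in allogeneic and 10.06 to 10.67 in syngeneic samples, and the epithelial mean was lowest on syngeneic array 4. Of these markers 18 had a positive log2 change, or 90% against 49% of all genes, and none passed the test. The groups did not overlap for 5 of them, all higher, or 25% against 5.18% of all genes on the higher side. The list means of 15 leukocyte markers were 5.00 to 5.71 in allogeneic and 5.28 to 5.62 in syngeneic samples, and 14 of the 15 did not pass. The neutrophil gene S100a8 was lower (limma adjusted p = 0.00424), at 2.59 to 3.41 in allogeneic and 4.75 to 5.25 in syngeneic samples, and its allogeneic values lie near the highest value of the Y-linked genes (3.18), so no fold is given. S100a9, of the same list, had 4.11 to 4.61 in allogeneic and 4.85 to 5.37 in syngeneic samples. Its groups did not overlap, and its log2 change of -0.83 did not pass (limma adjusted p = 0.059). The list means of 11 mural and fibroblast markers were 7.87 to 8.66 in allogeneic and 7.80 to 8.38 in syngeneic samples. A difference in a bulk sort cannot tell fewer cells of a type from less RNA per cell, and no member's signal can be assigned to endothelial cells. The 3 measured Y-linked genes, which female recipients lack, reached at most 3.18, and the lowest member value on any array was 4.63 (Pnp).

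Of the 33 measured members, 1 was lower and none was higher in allogeneic than in syngeneic samples, at an adjusted p below 0.05 in limma. This method fits a linear model to every gene and adjusts over all of them. Of all genes 0.469% passed, 0.113% as lower and 0.356% as higher. The lower member was Upp1, at 2.48-fold lower signal. All samples are from day 2, so each direction is relative to the other donor type only. At an unadjusted p below 0.05 there were 9 members, 4 higher and 5 lower, or 27.3% of the members against 13.2% of all genes (7.81% higher and 5.43% lower). The 4 arrays of the groups did not overlap for 7 members, Taldo1 and Paics higher and Upp1, Ada, Uck2, Shmt2 and Rrm2 lower, which is 21.2% of the members against 8.55% of all genes. On the lower side the share was 15.2% of the members against 3.36% of all genes, and on the higher side 6.06% against 5.18%. The median log2 change was 0.08 over the 26 synthesis genes and -0.23 over the 7 salvage and breakdown genes, beside -0.01 over all genes. Because the list was drawn up with results of these arrays known, these shares and medians describe it and were not tested.

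**Figure D1:**
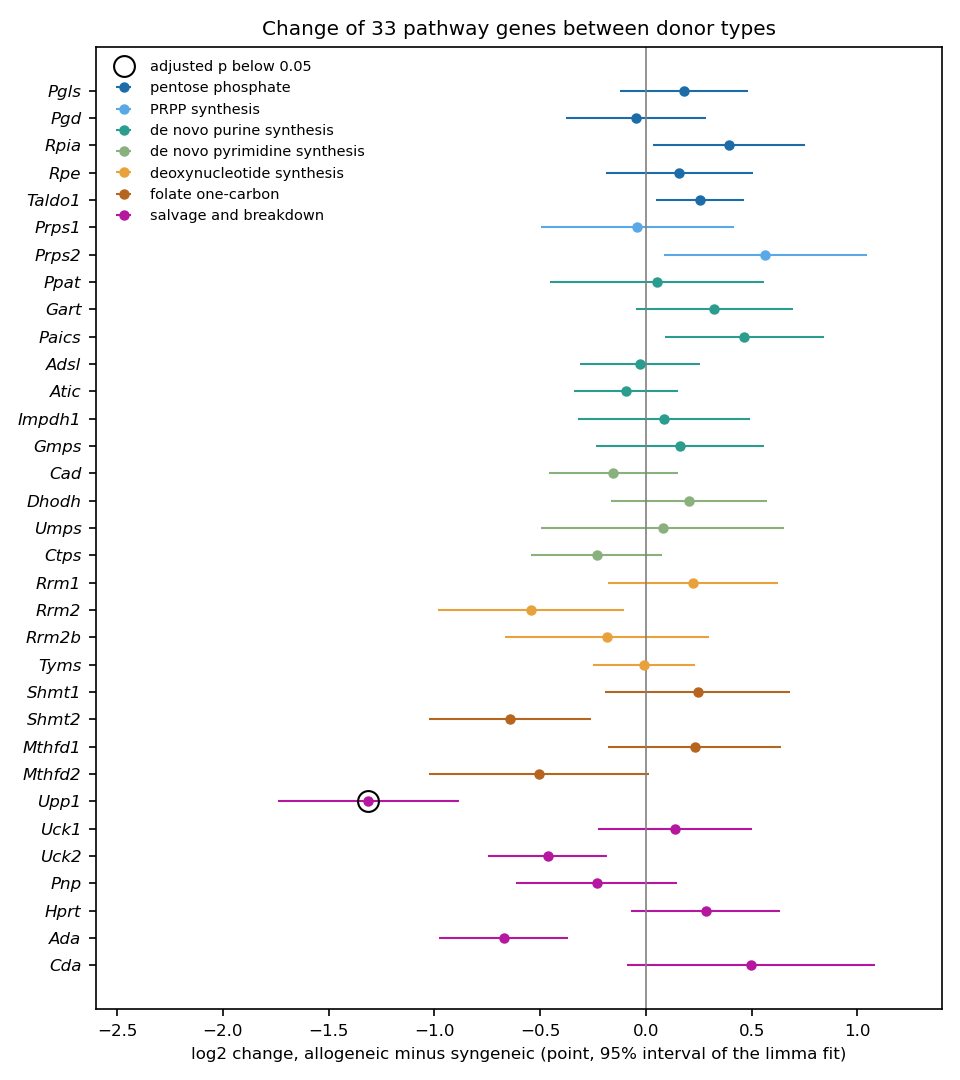
Log2 change (allogeneic minus syngeneic, x axis) of each of the 33 measured genes, ordered and coloured by role, with the 95% interval of the limma fit as a bar. Upp1, ringed, is the gene past the adjusted threshold at -1.31, and the 26 synthesis genes lie between -0.64 and 0.56.

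None of the 26 measured synthesis genes passed in limma, where 0.469% of all genes did. An unadjusted p below 0.05 was found for 6 of them (4 higher, 2 lower), or 23.1% against 13.2% of all genes, and their smallest adjusted p was 0.139. For 23 of the 26 the 95% interval of the change lay within a 2-fold change in either direction. The outer bounds over all 26 were -1.03 and 1.05, so changes of well over 2-fold lay outside the intervals of these genes.

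In the pentose phosphate pathway 4 of the 5 measured genes had a positive log2 change, as 49% of all genes did, and none passed. Taldo1 encodes transaldolase of the non-oxidative branch, which passes sugar carbons back to glycolysis. Its signals were 10.40, 10.31, 10.37 and 10.40 in allogeneic samples, against 10.13, 10.30, 10.06 and 9.97 in syngeneic samples. The allogeneic values were close together and all above the syngeneic ones, but the gap to syngeneic array 2 was far smaller than the spread of the syngeneic group. The log2 change was 0.25 ± 0.09 (SE, adjusted p = 0.273 in limma). Without both syngeneic arrays 3 and 4 it was 0.15, with the epithelial list mean as a covariate 0.12 and with the endothelial one 0.16. Rpia, the isomerase that forms ribose 5-phosphate, had 6.10, 6.20, 6.05 and 5.62 in allogeneic and 5.60, 5.49, 5.84 and 5.47 in syngeneic samples. Allogeneic array 4 lay inside the syngeneic range, and the log2 change of 0.39 ± 0.16 (SE) did not pass (limma adjusted p = 0.328). Pgls (lactonase, 0.18), Rpe (epimerase, 0.16) and Pgd, which makes NADPH in the oxidative branch (-0.05), had log2 changes smaller than Rpia's, and their groups overlapped.

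The PRPP synthetase genes Prps1 and Prps2 both overlapped between groups. Prps2 had 7.22, 7.21, 7.42 and 7.10 in allogeneic samples, against 7.36, 6.37, 6.34 and 6.61 in syngeneic samples. Syngeneic arrays 2, 3 and 4 lay below every allogeneic value and syngeneic array 1 lay among them, which left a log2 change of 0.56 ± 0.22 (SE, adjusted p = 0.296 in limma). The change of Prps1 was -0.04 ± 0.21 (SE), with its highest and lowest values both on syngeneic arrays.

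Of the 7 measured genes of purine synthesis none passed, and their log2 changes ran from -0.09 to 0.47. Paics encodes the bifunctional enzyme that carries the ring through carboxylation and the addition of aspartate. It had signals of 6.37, 6.61, 6.62 and 6.45 in allogeneic samples, against 6.24, 5.94, 5.66 and 6.35 in syngeneic samples. The groups did not overlap, though the lowest allogeneic and the highest syngeneic value all but met, and the log2 change of 0.47 ± 0.17 (SE) did not pass (limma adjusted p = 0.268). Its neighbour on the chromosome, Ppat, the amidotransferase that commits PRPP to purines, had a log2 change of 0.05 ± 0.23 (SE). Gart, whose protein carries several steps of the ring, was at 0.32 (0.21 without syngeneic array 1) and its other probe sets at 0.27 and 0.05. The late enzymes Adsl (-0.03) and Atic (-0.09), Impdh1 (0.08), which starts the branch to guanine nucleotides, and Gmps (0.16), which completes it, were all within 0.2 of 0 on the log2 scale.

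The 4 genes of pyrimidine synthesis had log2 changes between -0.23 and 0.21, and none of them had an unadjusted p below 0.05. Ctps, which makes CTP from UTP, had the smallest p of the group. Its values were 7.49, 7.24, 7.58 and 7.41 in allogeneic samples and 7.66, 7.59, 7.50 and 7.90 in syngeneic samples, overlapping, with a log2 change of -0.23 ± 0.14 (SE, adjusted p = 0.516 in limma). Cad, the multifunctional first enzyme, was at -0.15, Dhodh, the mitochondrial step, at 0.21, and Umps, which yields UMP, at 0.08. Umps had the widest spread of the 4, with an SE of 0.26.

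Of the 4 measured genes of deoxynucleotide synthesis none passed and 1 had groups without overlap, or 25% against 8.55% of all genes. Rrm2, the small subunit of ribonucleotide reductase that is made in S phase, had 6.87, 6.60, 6.86 and 6.00 in allogeneic samples, against 7.25, 6.93, 7.08 and 7.24 in syngeneic samples. Allogeneic array 4 was the lowest by a wide margin, arrays 1 and 3 lay just below the syngeneic range, and array 2 lay between these. The log2 change was -0.54 ± 0.20 (SE, adjusted p = 0.27 in limma). A second Rrm2 probe set, of weak signal, was at -0.23. The large subunit Rrm1 was at 0.22 ± 0.18 (SE) and the p53-inducible small subunit Rrm2b at -0.18 ± 0.22 (SE). Tyms, thymidylate synthase, was at -0.01 ± 0.11 (SE), with 8.75, 8.73, 8.77 and 8.58 in allogeneic and 8.75, 8.71, 8.59 and 8.82 in syngeneic samples. Its interval, -0.25 to 0.23, was among the narrowest of the list and spans 0. The 18 measured S phase and cycling genes, among them Mki67, Top2a and the Mcm genes, had a median log2 change of -0.07 and none passed. Groups overlapped for all of these cycling genes. Of all genes, 0.469% passed and 8.55% had groups without overlap. The list mean was lowest on allogeneic array 4 (7.97), which also had the lowest allogeneic value for 21 of the 33 members. Leaving that array out moved the Rrm2 change to -0.35, and the part of cycling cells in the Rrm2 values was not tested.

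None of the 4 folate enzymes on the list passed the test. Shmt2, the mitochondrial serine hydroxymethyltransferase that feeds carbon units from serine, had 9.66, 9.10, 9.80 and 9.08 in allogeneic samples, against 10.09, 10.25, 9.91 and 9.95 in syngeneic samples. The groups did not overlap. Allogeneic arrays 2 and 4 were clearly lower, array 3 came close to the lowest syngeneic value, and array 1 lay between these. The log2 change of -0.64 ± 0.17 (SE) did not pass (limma adjusted p = 0.139). It was -0.76 without syngeneic arrays 3 and 4, -0.76 with the epithelial covariate and -0.74 with the endothelial one. Without allogeneic array 2 it was -0.54 and without allogeneic array 4 -0.53. Mthfd2, the mitochondrial dehydrogenase and cyclohydrolase, had 5.97, 5.56, 5.84 and 4.78 in allogeneic and 6.09, 6.18, 5.89 and 6.01 in syngeneic samples and a log2 change of -0.51 ± 0.24 (SE, adjusted p = 0.394 in limma), which was -0.25 without allogeneic array 4. Its syngeneic values were tight and its allogeneic values widely spread. The cytosolic counterparts Shmt1 (0.24 ± 0.20 SE) and Mthfd1 (0.23 ± 0.19 SE) overlapped between groups, and the Shmt1 change turned negative without syngeneic arrays 3 and 4 (-0.06) and with the epithelial (-0.12) or endothelial covariate (-0.05). The mitochondrial paralogs Mthfd2l and Mthfd1l, which are not on the list, were at 0.43 ± 0.20 (SE) and 0.14 ± 0.14 (SE) and did not pass.

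Salvage and breakdown held the gene past the threshold. Upp1 encodes uridine phosphorylase, which splits uridine into uracil and ribose 1-phosphate. Its signals were 8.18, 7.99, 8.49 and 7.73 in allogeneic samples, against 9.28, 9.35, 9.15 and 9.86 in syngeneic samples. Every allogeneic value lay well below every syngeneic value, and the gap between the groups, from allogeneic array 3 to syngeneic array 3, was wider than the SD of either group. The mean was 8.10 ± 0.32 (SD, n = 4) after allogeneic and 9.41 ± 0.31 (SD, n = 4) after syngeneic transplantation. The log2 change was -1.31 ± 0.19 (SE, adjusted p = 0.0238 in limma), a 2.48-fold lower signal. It ranked 33rd by p among the 22180 genes. The call held under 11 of 21 other settings, with log2 changes from -1.44 to -1.07 over all of them. Among the 10 settings that ended it were those with all 41345 probe sets tested (limma adjusted p = 0.0702), without syngeneic arrays 3 and 4 (-1.22, limma adjusted p = 0.059), with the endothelial covariate (-1.16, 0.0665), with the epithelial one (-1.07, 0.182) and 5 of the 8 fits with a single array removed. These 5 were the fits without allogeneic array 1 (-1.34, limma adjusted p = 0.0936), allogeneic array 2 (-1.28, 0.0974), allogeneic array 4 (-1.19, 0.0724), syngeneic array 1 (-1.35, 0.0589) and syngeneic array 3 (-1.40, 0.0651). The marker list means differed by donor type themselves, by 0.30 for epithelium and -0.71 for endothelium, allogeneic minus syngeneic. A fit with such a covariate cannot separate cell composition from donor type.

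**Figure D2:**
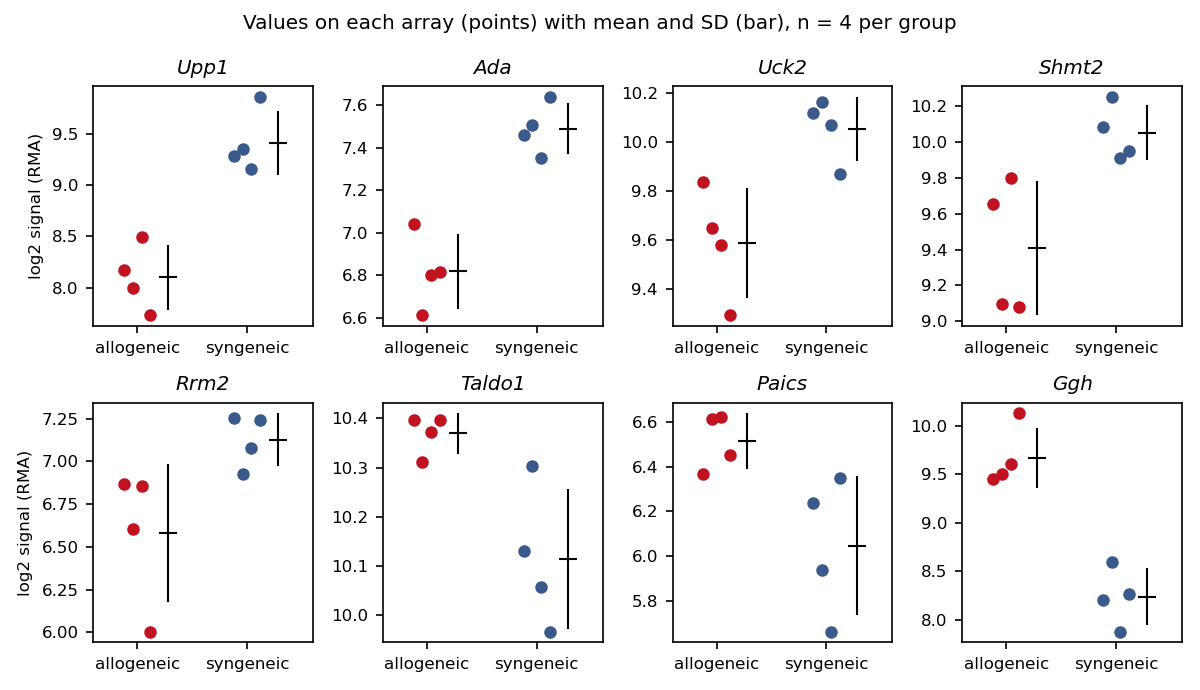
Log2 signal (y axis) of 8 genes on each array, allogeneic left in red and syngeneic right in blue, with the mean and SD of each group (n = 4) beside the points. Groups do not overlap in any panel, and the gap is wide for Upp1, Ada and Ggh and narrow for Taldo1, Paics, Uck2 and Rrm2.

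Ada came next. It encodes adenosine deaminase, which turns adenosine and deoxyadenosine into inosine and deoxyinosine. It had 7.04, 6.61, 6.80 and 6.82 in allogeneic samples, against 7.46, 7.51, 7.35 and 7.64 in syngeneic samples. The groups did not overlap, and the values within each group were close together. The log2 change of -0.67 ± 0.14 (SE) just missed the threshold (limma adjusted p = 0.0648). With weak genes left out before the test, Ada passed, at a limma adjusted p of 0.0484 for genes with a mean of at least 4 and of 0.0404 for genes above the median gene, where fewer genes were adjusted for. Over the 21 other settings its log2 change stayed between -0.75 and -0.60, and it passed only in the 2 named here. The limma adjusted p was 0.193 without allogeneic array 2 and 0.171 without syngeneic arrays 3 and 4. With the endothelial covariate it was 0.17 and with the epithelial one 0.313.

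To show the sequence in front of the start sites, the promoter windows of Upp1 and Ada are printed, since these genes had the smallest p-values of the list. They run from 250 bases before to 50 bases after a RefSeq start (GRCm38.p6), Upp1 at chr11:9117758-9118057 on the plus strand and Ada at chr2:163750190-163750489 on the minus strand, and capitals mark the motif matches described next.
Upp1: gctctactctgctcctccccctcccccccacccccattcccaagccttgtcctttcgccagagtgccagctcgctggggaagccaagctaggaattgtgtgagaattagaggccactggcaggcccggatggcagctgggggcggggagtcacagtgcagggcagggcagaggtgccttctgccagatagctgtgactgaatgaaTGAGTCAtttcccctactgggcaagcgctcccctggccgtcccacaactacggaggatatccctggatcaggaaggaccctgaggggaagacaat
Ada: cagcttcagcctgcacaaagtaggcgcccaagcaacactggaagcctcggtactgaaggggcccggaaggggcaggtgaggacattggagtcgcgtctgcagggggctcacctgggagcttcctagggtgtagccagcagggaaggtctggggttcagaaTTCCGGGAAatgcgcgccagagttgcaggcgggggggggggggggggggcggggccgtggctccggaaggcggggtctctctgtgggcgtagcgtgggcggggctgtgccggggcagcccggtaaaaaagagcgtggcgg
The capitals in Upp1 are a match to the AP-1 motif TGANTCA, first base 45 before the start, which 8.97% of the 27025 genes with such windows hold in at least 1 window. Upp1 was the only one of the 31 measured members with a window that held it, and of its other RefSeq starts the window of one shares these bases and that of the other has no match. The capitals in Ada are a match to the STAT motif TTCNNNGAA, first base 90 before the start, which 9.55% of all genes hold and 4 of the 31 members (Paics, Adsl, Shmt2 and Ada). The MYC E-box CACGTG, the ATF4 letters TGATGNAA and the E2F letters TTTNNCGC were searched too, on both strands. The E-box was found in 3 of 31 members (Paics, Atic and Tyms) against 8.09% of all genes, and the ATF4 letters in 1 of 31 (Prps1) against 4.51%. The E2F letters were found in 7 of 31 members (Pgls, Prps1, Prps2, Ppat, Tyms, Shmt2 and Pnp) against 5.93% of all genes. Of these 7 genes, Shmt2 alone had groups that did not overlap. A match is a string of letters, and binding was not measured.

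Uck2, a uridine and cytidine kinase of pyrimidine salvage, was the other salvage gene without overlap. Its signals were 9.83, 9.65, 9.58 and 9.29 in allogeneic samples, against 10.12, 10.16, 10.07 and 9.87 in syngeneic samples. The highest allogeneic value nearly met the lowest syngeneic one. The log2 change of -0.46 ± 0.13 (SE) did not pass (limma adjusted p = 0.143), and the gene's other probe set, of nearly equal signal, was at -0.22. Its paralog Uck1 was at 0.14 ± 0.16 (SE). Of the remaining genes, Hprt, which salvages hypoxanthine and guanine, was at 0.28 ± 0.16 (SE) (0.13 without syngeneic array 3), and Cda, cytidine deaminase, at 0.50 ± 0.27 (SE) (0.75 without allogeneic array 4) with widely spread values (7.77, 7.26, 7.65 and 6.54 in allogeneic and 6.99, 6.73, 6.39 and 7.12 in syngeneic samples). Pnp, purine nucleoside phosphorylase, was at -0.23 ± 0.17 (SE) on a weak signal. Pnp2, a close copy of it, was at 0.56 ± 0.23 (SE) (0.20 to 0.79 over the 21 other settings). The sequences of Pnp and Pnp2 are so alike that signal may be shared between their probe sets, and both values are uncertain in that respect.

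Of 71 further genes of these pathways with a measured value, 1 passed as higher in allogeneic samples and none as lower. An unadjusted p below 0.05 was found for 15 on the higher side and 6 on the lower side, and the median log2 change was 0.06. These are 1.41% past the threshold against 0.469% of all genes, and 29.6% with an unadjusted p below 0.05 against 13.2% of all genes (7.81% higher and 5.43% lower). The gene that passed was Ggh, gamma-glutamyl hydrolase, which removes the glutamate chain that holds folates in the cell. It had 9.45, 9.50, 9.60 and 10.13 in allogeneic samples, against 8.20, 8.60, 7.88 and 8.27 in syngeneic samples, with no overlap and a gap wider than the SD of either group. Its log2 change was 1.44 ± 0.19 (SE), or 2.71-fold (limma adjusted p = 0.0178). The call was lost with the epithelial covariate (1.28, limma adjusted p = 0.13), without syngeneic arrays 3 and 4 (1.27, 0.0569), without allogeneic array 1 (1.51, 0.0531), without syngeneic array 3 (1.32, 0.059) and with all probe sets tested (adjusted p = 0.0543). Slc46a1, the proton-coupled folate transporter of the gut, had a log2 change of 0.71 ± 0.23 (SE, adjusted p = 0.22 in limma). Over the 21 other settings the Slc46a1 change lay between 0.34 and 0.82. Psat1, of serine synthesis, had a log2 change of -0.54 ± 0.23 (SE, adjusted p = 0.341 in limma), which was -0.31 without allogeneic array 4.

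**Figure D3:**
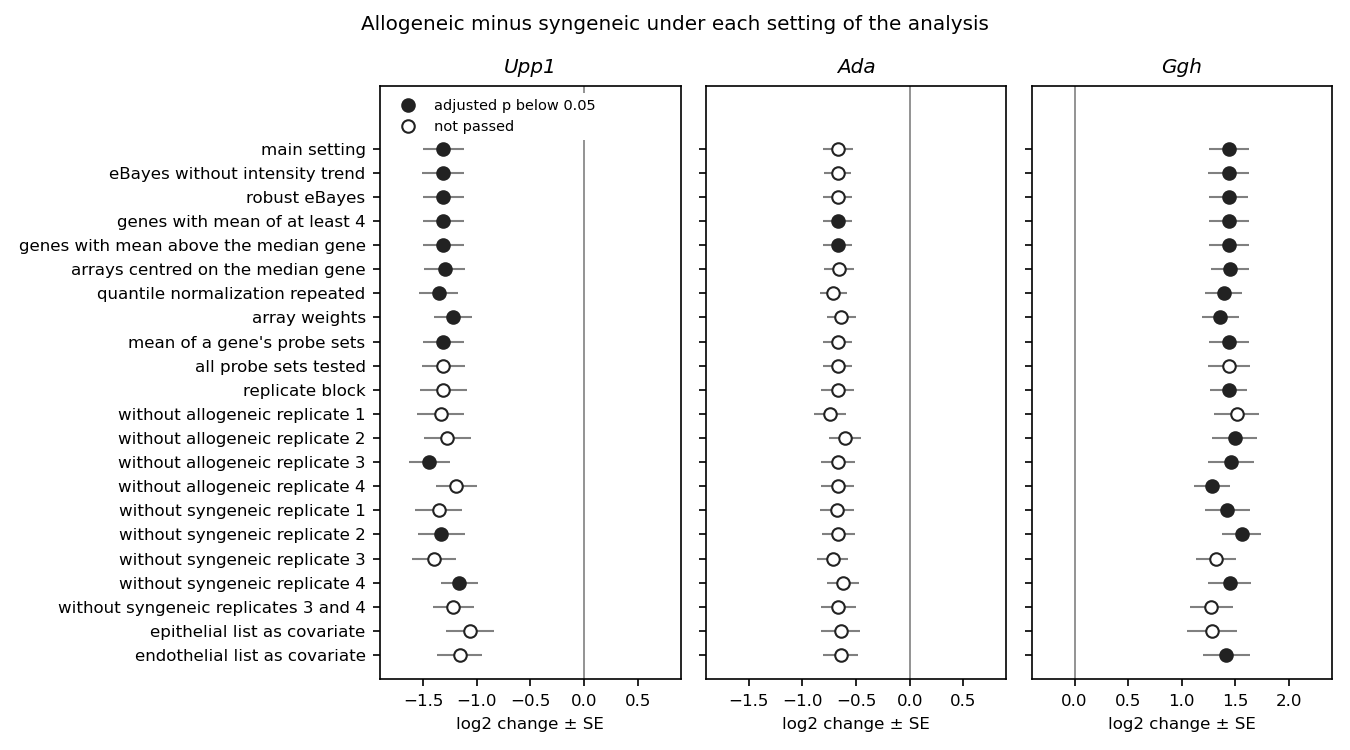
Log2 change with SE (x axis, allogeneic minus syngeneic) of Upp1, Ada and Ggh under the main and 21 other settings (y axis), filled where the adjusted p was below 0.05. Upp1 and Ggh kept their direction under all settings shown and passed in 11 and 16 of the 21, and Ada passed in 2.

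Among 20 further salvage and breakdown genes none passed, but the groups did not overlap for 8 of them, 5 higher and 3 lower, or 40.0% against 8.55% of all genes (25.0% against 5.18% higher and 15.0% against 3.36% lower). Of the 3 lower genes, Upp2 and Ampd1 lay near the highest Y-linked value. Their mean signals were 3.25 and 3.70 in allogeneic and 3.41 and 3.96 in syngeneic samples. Xdh, the oxidoreductase that makes urate, had the smallest p. Its signals were 7.85 to 8.54 in allogeneic samples, against 8.71 to 9.79 in syngeneic samples, with a log2 change of -1.01 ± 0.24 (SE, adjusted p = 0.0997 in limma). Its highest value was on syngeneic array 4, which also had the highest endothelial mean, and its change was -0.73 without syngeneic arrays 3 and 4, -0.55 with the epithelial covariate and -0.64 with the endothelial one. Adk, adenosine kinase, the other main route of adenosine besides Ada, had 7.92, 8.16, 8.08 and 8.15 in allogeneic and 7.60, 7.51, 6.54 and 7.00 in syngeneic samples and a log2 change of 0.91 ± 0.22 (SE, adjusted p = 0.104 in limma). Its lowest value was on syngeneic array 3, and without syngeneic arrays 3 and 4 the change was 0.52. Downstream of Upp1, uracil is broken down by the products of Dpyd, Dpys and Upb1. Dpyd was at 0.76 ± 0.20 (SE) and Upb1 at 0.71 ± 0.18 (SE), both without overlap on the higher side (limma adjusted p = 0.132 and 0.121). Dpys was at 0.05 ± 0.12 (SE), with mean signals of 3.75 in allogeneic and 3.70 in syngeneic samples, near the highest Y-linked value. With the epithelial covariate the change of Dpyd was 0.40 and that of Upb1 0.72. Adk, Dpyd, Dpys, Upb1, Upp2, Ampd1, Pnp2, Psat1, Slc46a1, Mthfd2l and Mthfd1l were picked for naming after their values had been seen.

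In the other pathway lists the gene with the smallest p did not pass either. These were Dera of deoxyribose phosphate breakdown (0.30 ± 0.11 SE), Ak4, an adenylate kinase of mitochondria (-0.38 ± 0.19 SE), the CTP synthase Ctps2 (0.45 ± 0.13 SE), the deoxynucleotide hydrolase Samhd1 (-0.62 ± 0.23 SE), the nucleoside transporter Slc28a3 (-0.51 ± 0.33 SE) and the mitosis gene Cdc20 (-0.44 ± 0.16 SE), with limma adjusted p between 0.176 and 0.559. Without allogeneic array 4 the change of Ak4 was -0.22 and that of Cdc20 -0.29. Without syngeneic array 4 that of Samhd1 was -0.38 and that of Slc28a3 -0.91. Ctps2 and Ctps, which encode the same activity, had log2 changes of opposite sign, and the difference was not tested.

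**Figure D4:**
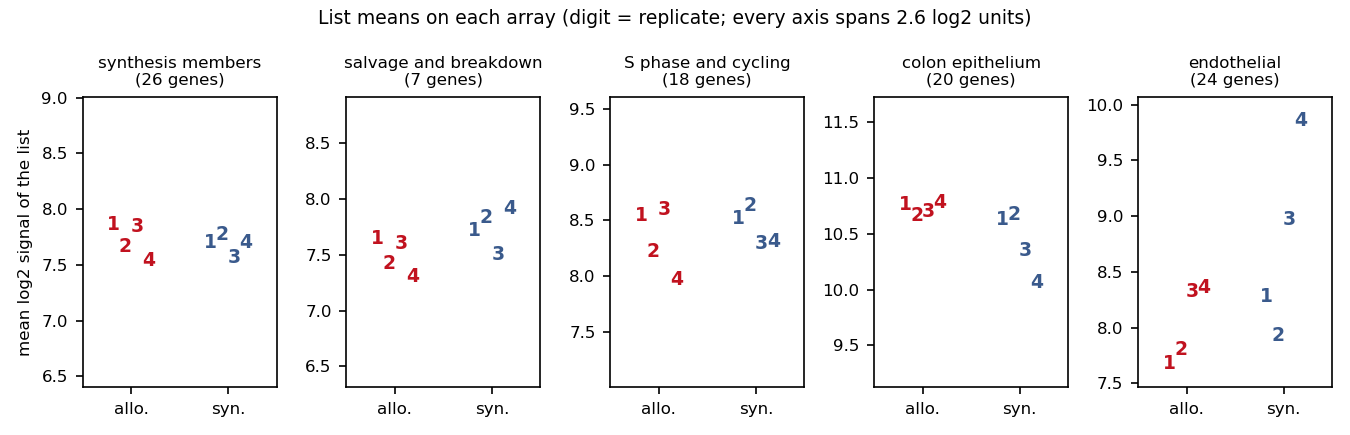
Mean log2 signal (y axis) of the 26 synthesis genes, the 7 salvage and breakdown genes, 18 cycling genes, 20 epithelial and 24 endothelial markers on each array, allogeneic left and syngeneic right, with digits for the replicate. Synthesis means overlap between groups (7.54 to 7.86 and 7.57 to 7.77), and the endothelial panel shows syngeneic arrays 3 and 4 above the rest.

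Read as a whole over the arrays, the synthesis genes had list means of 7.86, 7.67, 7.84 and 7.54 in allogeneic and 7.70, 7.77, 7.57 and 7.70 in syngeneic samples, a difference of 0.04 with overlapping groups. The salvage and breakdown genes had 7.65, 7.42, 7.60 and 7.30 in allogeneic and 7.72, 7.83, 7.51 and 7.92 in syngeneic samples, overlapping at syngeneic array 3, with a difference of -0.25. Upp1, Ada and Uck2 had the most negative changes among them.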

How the data were processed

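RNA of sorted colon cells was labelled from 700 pg per sample and read on 8 arrays, 4 per donor type, grouped by sample title. Per the labels, the samples are biological replicates. The authors deposited log2 signals per probe set. Per the submitters' processing notes they used RMA in Affymetrix Expression Console 1.4.1 (background correction, quantile normalization and summary of probes, as RMA does). Which genome build and level of summary they used is not given in the sources used here, and no detection call was at hand. The number of arrays limits the precision, and differences within quantile-normalized data are relative to the other genes.

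Of 41345 probe sets, 23521 had exactly 1 gene symbol in the platform annotation. The one with the highest mean was kept per gene, which left 22180 genes. Group differences were fitted with limma 3.58.1 in R 4.3.3 (lmFit, then eBayes with an intensity trend), with Benjamini-Hochberg adjustment over all genes, a threshold of 0.05 and no filter. The code was tested on simulated data.

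The members, lists and alternatives were chosen with earlier results of these data known. All members may be named, in depth those that passed, had no overlap or had the smallest p of their group. Of the further pathway genes, those that passed and the smallest p of each list were named. Alternatives covered the variance prior, dim genes, scaling, array weights, probe sets, the replicate number as a block, arrays left out and marker list means as covariates. For the promoter search, 31 of the 33 members had RefSeq windows in the table used. The motifs were picked after seeing the values. The labels name no batch.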

Additional observations from a re-analysis of the deposited data

Results flagged for a closer look

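In 2 of 106 groups of 4 arrays examined (53 genes or list means in both donor types), 1 array lay farther from the nearest other than Dixon's 95% limit allows, where chance alone gives about 1 in 20. For Rpe, allogeneic array 1 had 7.67, while the other 3 allogeneic arrays had at most 7.34. For the nucleoside transporter gene Slc28a3, syngeneic array 4 had 6.25, while the other 3 syngeneic arrays had at least 7.74. Without that array the log2 change of Slc28a3 was -0.91 in place of -0.51 and passed the threshold (limma adjusted p = 0.0309).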

How the results depend on the processing

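Among the 33 members, 22 kept their sign under all 21 alternatives (20 for Pnp, which lies below the median gene) and the other 11, none of them called under any, turned it under at least 1. No member passed as higher under any alternative. The count of members that passed as lower was 1, and it was 2 (Upp1 and Ada) with genes of a mean of at least 4 or above the median gene. It was 0 with all probe sets tested, with the replicate block, without syngeneic arrays 3 and 4, and with the epithelial or the endothelial list as covariate, and 0 to 1 when single arrays were left out (0 without allogeneic array 1, 2 or 4 or syngeneic array 1 or 3). Over all genes, 79 were higher and 25 lower. With a mean of at least 4 these counts were 131 and 50, above the median gene 138 and 55, with all probe sets tested 11 and 6, without syngeneic arrays 3 and 4 26 and 12, with the epithelial covariate 5 and 3, and with the endothelial one 26 and 14. Quantile normalization repeated gave 46 higher genes, the replicate block 40, and array weights 39 lower genes. Leaving out 1 array gave 4 to 145 higher and 4 to 35 lower genes. The cause of these differences was not tested. The median over synthesis genes stayed between -0.0039 and 0.14 and that over salvage and breakdown genes between -0.32 and -0.06. The sample titles do not say whether same-numbered samples are pairs. Deviations of same-numbered arrays correlated by 0.05, 0.05, -0.10 and 0.10, and such weak values cannot decide it. With the number as a block Upp1 had a limma adjusted p of 0.0609. Only the epithelial covariate raised Upp1's limma adjusted p above 0.1 (0.182), and that fit cannot separate cell composition from donor type. Signals near those of the Y-linked genes, as for Dpys, Upp2 and Ampd1, cannot show a change.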
